A study of Mus musculus with 24 samples.

Results

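Undifferentiated female mouse embryonic stem cells that lack G9a (KO) were compared with the line they were made from (WT). The comparison rests on 6 RNA libraries, 3 of KO and 3 of WT, among the 24 samples of the series, chosen by their labels, and covers 20624 tested genes of the 24016 in the gene table. KO cells are a G9a knockout of 16.7 Tsix +/TST cells, and WT cells are that parental line, so both carry 1 truncated Tsix allele. The line is a hybrid, and reads of a mus and a cas allele were counted separately. Both were harvested before differentiation (day 0). The labels give neither the number of knockout clones nor whether replicates came from separate cultures, so p-values measure only the spread between these libraries. An H3K9ac ChIP sample of each line at day 0 gave a further readout, and 3 KO and 3 WT libraries taken after 10 days of differentiation were used to look again at genes chosen at day 0.

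G9a, the product of Ehmt2, pairs with GLP (Ehmt1) to add methyl groups to lysine 9 of histone H3 (H3K9me2), a mark of repressed chromatin spread over euchromatin. In embryonic stem cells the enzyme is known for silencing germ cell genes, some endogenous retroviruses and genes of the 2-cell-like state, which a small share of stem cells enters for a time. Acetylation of the same lysine (H3K9ac) marks active promoters.

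Transcripts of the targeted gene were fewer in KO. Ehmt2 (chromosome 17) had 557.3, 440.9 and 375.4 scaled reads (reads brought to a common total per library) in KO against 986.8, 1102.3 and 1375.1 in WT. The log2 difference was -1.34 (SE 0.31, n = 3 each), -0.90 in shallow and -1.75 in deep libraries, and its adjusted p in limma was 0.993. Counting did not separate the deleted part of the gene from the rest. The partner Ehmt1 had 1454.0, 1313.0 and 1279.5 scaled reads in KO against 1740.1, 1068.9 and 1121.2 in WT, and these ranges overlapped. Xist, the RNA that coats the inactive X chromosome, had 750.3, 616.8 and 653.5 against 852.4, 405.0 and 357.2, also with overlap, as had its antisense partner Tsix; reads of this pair cannot be told apart unless counting used strand, which is not given in the sources used here.

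Depth differed within each line. KO 1, WT 1 and WT 2 were shallow (2081129 to 2790870 recovered reads) and KO 2, KO 3 and WT 3 deep (21087157 to 30527844). The classes also differed in Rn45s, which took 18.08 to 21.93% of reads in shallow and 0.115 to 0.129% in deep libraries. Depth class and Rn45s share thus cannot be told apart, and the lines hold them unequally. The median log2 difference of all genes was 0.17 over all libraries and 0.07 with a depth term. The part of Rn45s reads in differences over all libraries was not tested. Each gene was therefore also compared within depth classes on the log2(scaled reads + 1) scale, as KO 1 minus the mean of WT 1 and WT 2 (shallow) and as the mean of KO 2 and KO 3 minus WT 3 (deep). Libraries also differed in reads of receptor, fibroblast and Y-linked genes, and where these reads came from was not tested. Genes of olfactory and vomeronasal receptors took 1023, 109 and 113 CPM in KO and 361, 244 and 70.7 CPM in WT. Fibroblast genes (25) took 2856, 1481 and 1481 CPM in KO and 5436, 1537 and 1312 CPM in WT, and 9 Y-linked genes 15.1, 1.13 and 1.47 CPM in KO and 31.3, 1.78 and 0.951 CPM in WT. KO 2 and KO 3 were closer to each other (chi-square per gene 2.73) than any other pair of a line (18.99 to 404.1), above sampling noise. They were also the only pair of a line in which both libraries were deep, so closeness and depth class cannot be told apart. All 8 stem cell markers were read in every library, at summed levels of 28114 to 34652 scaled reads in KO and 28083 to 43134 in WT. In bulk RNA, fewer cells of a type and less RNA per cell cannot be told apart.

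No gene passed the test over all genes. In limma 0 of 20624 genes had an adjusted p under 0.05 (percent called 0), and 788 had an unadjusted p under 0.05, 411 higher in KO (1.99%) and 377 lower (1.83%). On the recovered reads edgeR also called 0 (601 at an unadjusted p under 0.05), DESeq2 called 16 (0.0949%; 8 higher, 8 lower) and limma's voom with sample weights 1244 (8.36%). The voom weights were 6.93 and 5.86 for KO 2 and KO 3, the closest pair, and 0.157 for KO 1. WT 1, WT 2 and WT 3 had 0.42, 0.835 and 0.16, so KO 2 and KO 3 counted most in that fit. Adjusting the p-values in the authors' deposited table left 4 of 24016 genes (0.0167%), Efhc2, Usp17lb, Pramel6 and Ptprtos, all higher in KO. KO libraries lay wholly above WT libraries in 1134 genes (5.5%) and wholly below in 1027 (4.98%). Of these, 362 (1.76%) were higher and 149 (0.722%) lower by at least 2-fold in both depth classes. With a mean of at least 30 scaled reads over the 6 libraries, 93 genes (0.667% of 13952) were higher and 91 (0.652%) lower. These sets were picked on their values, so those values describe them and test nothing. Just inside the limit of 1 (log2) stood Tmem144 (1.00 in deep libraries) and Klk8 (-1.004 in shallow), and just outside it Plbd1 (0.98 in deep).

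**Figure D1:**
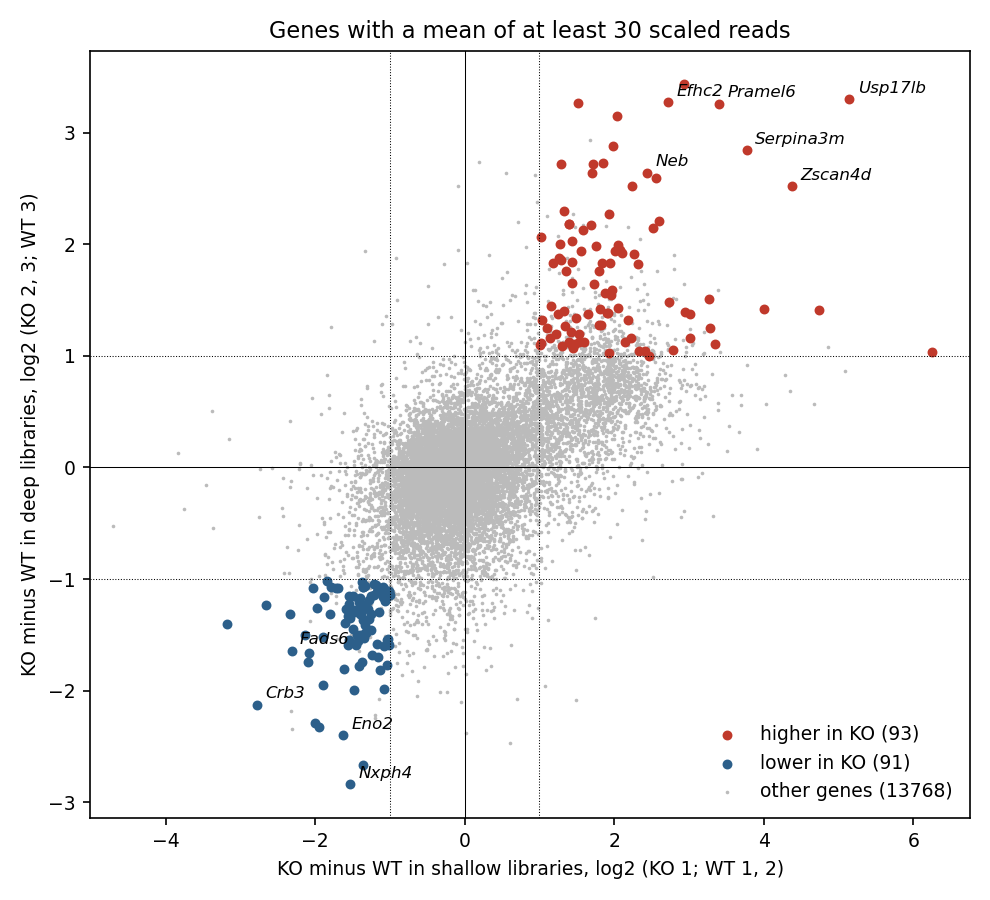
KO minus WT difference of each gene in the shallow libraries (horizontal axis) and in the deep ones (vertical axis), both log2, for the 13952 genes with a mean of at least 30 scaled reads. The 93 red (higher in KO) and 91 blue (lower) genes lie beyond 1 in both classes with KO and WT libraries that do not overlap, and the grey genes in the same corners have libraries that overlap.

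Genes of the 2-cell-like state led the higher genes. Usp17lb (chromosome 7, 111988826 to 111991018, mm9), a deubiquitinase gene of the Usp17-like family, had 99.6, 115.9 and 99.3 scaled reads in KO against 7.07, 0 and 9.96 in WT. Every KO library was far above every WT library, with a log2 difference of 4.57 (SE 0.81), 5.15 in shallow and 3.30 in deep libraries. The nearby Usp17la (chromosome 7, 112005530 to 112011181) had 81.0, 114.0 and 103.0 against 21.2, 4.18 and 9.11 (log2 3.24, SE 0.63). Zscan4d (chromosome 7, 11746992 to 11751497), a SCAN and zinc finger gene known for telomere maintenance in this state, had 112.1, 218.5 and 213.4 in KO against 28.3, 0 and 36.7 in WT (log2 4.08, SE 1.03). Copies of these genes share sequence, and how reads with several positions were placed is not given in the sources used here, so values of single copies are uncertain.

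The promoters of 4 Usp17-like genes are shown because all 4 had every KO library above every WT library. Beside Usp17la and Usp17lb these are Usp17lc, with 105.9, 105.2 and 110.4 scaled reads in KO against 38.9, 20.9 and 15.4 in WT, and Usp17ld, with 28.0, 22.5 and 22.7 against 14.2, 0 and 3.13 (both chosen after their values were seen). The sequences are from RefSeq (GRCm38.p6, 250 bases before to 50 after the start, 5′ to 3′ on the gene's strand), and capitals mark the longest run shared by all 4, of 29 bases.
Usp17la: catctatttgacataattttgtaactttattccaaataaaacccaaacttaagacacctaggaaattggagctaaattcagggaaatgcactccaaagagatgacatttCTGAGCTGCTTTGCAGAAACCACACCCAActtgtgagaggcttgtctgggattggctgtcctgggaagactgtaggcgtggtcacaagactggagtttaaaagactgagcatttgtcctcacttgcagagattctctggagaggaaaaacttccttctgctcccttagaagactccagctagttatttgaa
Usp17lb: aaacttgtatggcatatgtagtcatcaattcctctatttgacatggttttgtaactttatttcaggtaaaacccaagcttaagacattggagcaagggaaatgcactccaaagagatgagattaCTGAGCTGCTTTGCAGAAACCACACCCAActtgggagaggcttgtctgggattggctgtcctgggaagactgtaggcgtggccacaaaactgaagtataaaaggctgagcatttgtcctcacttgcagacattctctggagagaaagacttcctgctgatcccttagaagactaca
Usp17lc: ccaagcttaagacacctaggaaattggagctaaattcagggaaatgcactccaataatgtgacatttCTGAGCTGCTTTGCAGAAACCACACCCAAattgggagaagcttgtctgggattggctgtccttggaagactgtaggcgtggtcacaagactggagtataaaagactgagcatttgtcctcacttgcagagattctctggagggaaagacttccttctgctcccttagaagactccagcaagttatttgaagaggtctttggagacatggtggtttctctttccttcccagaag
Usp17ld: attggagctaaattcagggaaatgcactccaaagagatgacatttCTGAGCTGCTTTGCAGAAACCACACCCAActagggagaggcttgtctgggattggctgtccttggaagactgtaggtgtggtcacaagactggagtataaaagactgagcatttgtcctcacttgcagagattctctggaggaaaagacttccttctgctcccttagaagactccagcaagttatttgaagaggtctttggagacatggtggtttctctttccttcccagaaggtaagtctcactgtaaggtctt
Their places are chr7:104856766-104857065 (+ strand), chr7:104842534-104842833 (- strand), chr7:103416446-103416745 (+ strand) and chr7:103252456-103252755 (- strand). The shared run was derived from these 4 promoters, so its presence in them was fixed in advance. It stood in 4 of 32851 RefSeq promoters (0.0122%), those of these genes. The letters CCAAT, searched on both strands, were in all 4 and in 37.4% of all promoters, and TATAAA, searched likewise, was in those of Usp17lb, Usp17lc and Usp17ld and in 13.6% of all promoters. A further copy, Usp17le (chosen after its values were seen), had 221.1, 197.3 and 192.0 scaled reads in KO against 42.4, 71.0 and 25.6 in WT. Its KO libraries also lay wholly above its WT libraries, but its promoter was not compared with these 4. None of the 5 had an H3K9ac peak within 1 kb of its start in either line.

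Pramel6 (chromosome 2, 87348615 to 87351022, mm9), a PRAME-like gene of the preimplantation embryo, had 121.4, 501.8 and 460.7 scaled reads in KO against 24.8, 4.18 and 49.2 in WT. The deep KO libraries were highest, and the log2 difference was 4.02 (SE 1.29), 3.41 in shallow and 3.26 in deep libraries. Its family member Pramel7 (chosen after its values were seen) had 158.8, 792.0 and 810.1 against 53.1, 12.5 and 180.5 (log2 3.20, SE 0.90), with KO 1 below WT 3. Both had an H3K9ac peak at the start in KO and none in WT, with the authors' fold enrichment at 2.45 and 2.58. The Pramel6 promoter (RefSeq, GRCm38.p6, chr2:87506315-87506614, + strand) is shown for that peak, with CCAAT and its reverse complement ATTGG in capitals.
Pramel6: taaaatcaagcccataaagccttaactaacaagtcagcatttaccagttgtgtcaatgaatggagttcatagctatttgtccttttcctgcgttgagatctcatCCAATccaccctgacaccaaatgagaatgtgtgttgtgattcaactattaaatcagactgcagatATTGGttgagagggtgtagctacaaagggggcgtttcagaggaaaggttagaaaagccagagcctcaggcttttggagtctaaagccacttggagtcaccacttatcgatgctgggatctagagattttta

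**Figure D2:**
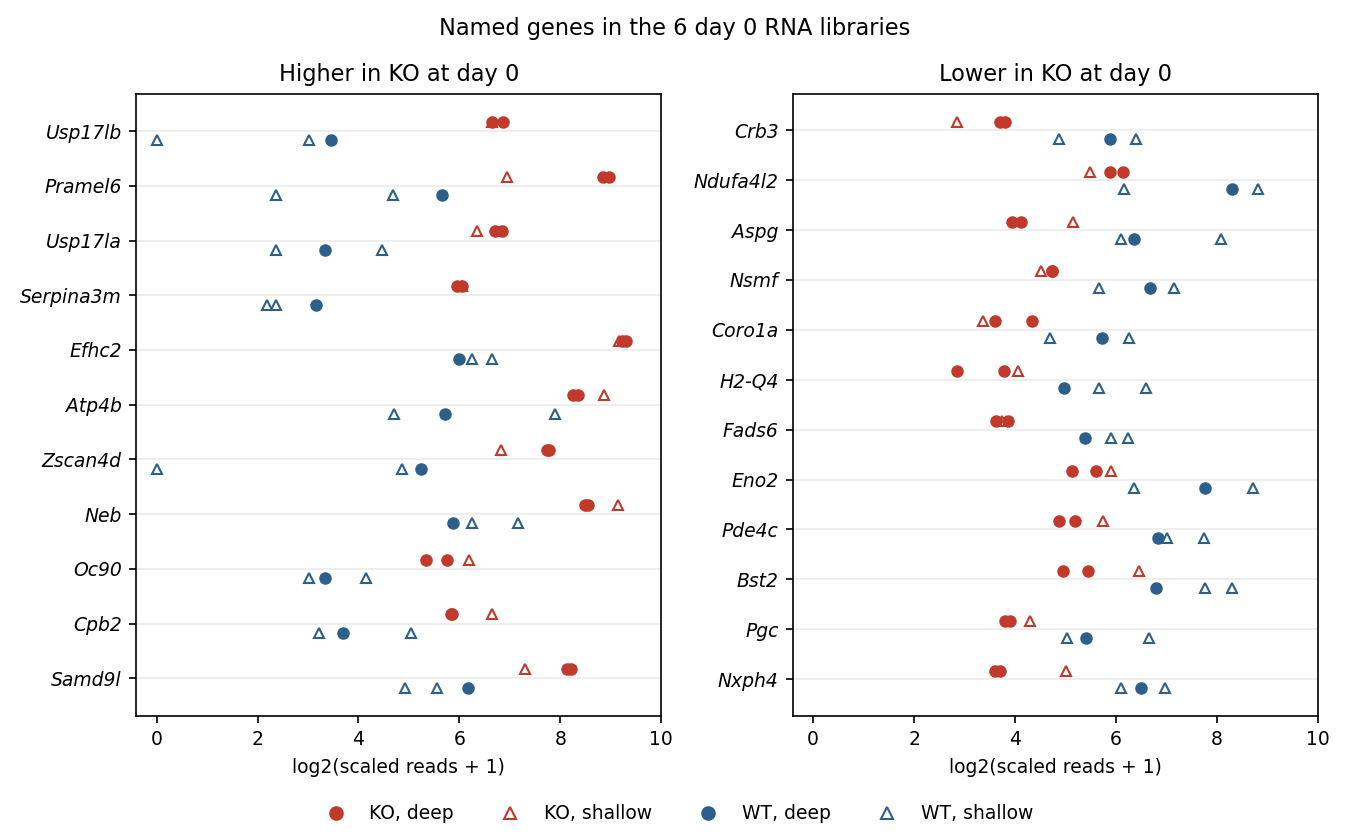
Level of 11 higher and 12 lower named genes in each day 0 library, as log2(scaled reads + 1), with KO in red above WT in blue, filled circles for deep and open triangles for shallow libraries. The genes were chosen because KO and WT do not overlap; Usp17lb has 99.3 to 115.9 scaled reads in KO against 0 to 9.96 in WT, and Ndufa4l2 43.6 to 69.2 against 70.7 to 446.8.

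Of the 2-cell-like list, chosen with earlier results known, 29 of 30 tested members were above 0, with a median log2 difference of 1.80 (1.77 in shallow, 2.14 in deep libraries, 2.00 without KO 1) against 0.17 for all genes tested (0.11, 0.06 and 0.10). KO lay wholly above WT in 21 members (70.0%, against 5.5% of all genes) and wholly below in 0, and 0 passed the test. Tmem92 and Tex19.1 (both chosen after their values were seen) had 339.4, 303.8 and 283.1 scaled reads in KO against 173.3, 62.6 and 64.0 in WT, and 881.1, 787.7 and 705.5 against 587.1, 300.6 and 482.5.

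Several of the higher named genes are known from differentiated tissues. Efhc2 (chromosome X, 16709175 to 16896494), which encodes an EF-hand protein of cilia, had 576.0, 594.6 and 630.5 scaled reads in KO against 99.0, 75.2 and 62.3 in WT. Both lines were tight, and the log2 difference was 2.94 (SE 0.72), 2.72 in shallow and 3.28 in deep libraries. Its surroundings were unlike it: Fundc1, a mitophagy receptor gene, had 155.7, 367.6 and 351.9 scaled reads in KO against 162.7, 167.0 and 288.1 in WT, and Maob, a monoamine oxidase gene, 171.2, 23.4 and 24.3 against 60.1, 41.8 and 21.1 (both chosen after their values were seen).

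Serpina3m, a serine protease inhibitor gene, had 65.4, 65.8 and 61.0 scaled reads in KO against 3.54, 4.18 and 7.97 in WT (log2 3.45, SE 1.10). WT 1 and WT 2 held 1 read of it each, and KO 1 held 21. Atp4b, the beta subunit of the stomach's proton pump, had 463.9, 326.0 and 302.0 against 237.0, 25.1 and 51.2 (log2 2.38, SE 0.84), with WT 1 close to the KO libraries. Neb, the thin-filament protein nebulin of muscle, had 563.5, 356.9 and 375.8 against 141.5, 75.2 and 57.8 (log2 2.30, SE 0.57). KO 1 was the highest library for Atp4b and Neb, and their differences in the deep libraries alone were 2.59 and 2.64. Oc90, a protein of the otoconia of the inner ear, had 71.6, 52.8 and 39.6 scaled reads in KO against 7.07, 16.7 and 9.11 in WT (log2 2.26). Cpb2, a carboxypeptidase made in liver, had 99.6, 55.7 and 56.9 against 31.8, 8.35 and 11.95 (log2 2.13). Both were highest in KO 1, the library with the most receptor reads, and in the deep libraries the differences were 2.21 and 2.14. Whether background reads had a part in these differences was not tested.

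Genes of innate defence were found in both directions. Samd9l, an interferon-induced antiviral gene, had 155.7, 278.1 and 297.5 scaled reads in KO against 46.0, 29.2 and 71.4 in WT (log2 2.33, SE 0.65). Aim2, a cytosolic DNA sensor (chosen after its values were seen), had 283.3, 542.5 and 562.0 against 116.7, 62.6 and 82.8 (log2 2.37, SE 0.52) and an H3K9ac peak in KO only. Bst2, the antiviral membrane protein tetherin, had 87.2, 42.3 and 30.1 scaled reads in KO against 215.7, 313.1 and 109.6 in WT (log2 -2.00, SE 0.50). Stat2, which carries the interferon signal to the nucleus, had 305.1, 223.1 and 217.2 against 449.2, 743.2 and 621.9 (log2 -1.27, SE 0.32). Oas3, a sensor of double-stranded RNA, had 24.9, 26.7 and 18.95 against 63.7, 142.0 and 66.3, while Tlr3, the endosomal sensor of the same ligand, had 34.2, 48.5 and 45.3 against 7.07, 12.5 and 19.6. In the interferon list of 38 tested genes 20 were above 0 and 18 below, with a median of 0.13. KO was wholly above WT in 1 (2.63%, against 5.5% of all genes) and wholly below in 5 (13.2%, against 4.98%), and 0 passed the test. The class I antigen genes H2-Q4 and H2-K1 were lower: H2-Q4 had 15.6, 6.19 and 12.8 scaled reads in KO against 49.5, 96.0 and 30.5 in WT (log2 -2.18), and H2-K1 (chosen after its values were seen) 130.8, 197.0 and 171.8 against 247.6, 463.4 and 476.5 (log2 -1.20).

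The lower named genes included Eno2 and Ndufa4l2. Eno2, a glycolytic enolase, had 59.2, 47.9 and 34.2 scaled reads in KO against 81.3, 417.5 and 217.7 in WT (log2 -2.06, SE 0.56). Ndufa4l2, a mitochondrial protein known to be induced by hypoxia, had 43.6, 58.0 and 69.2 against 70.7, 446.8 and 314.5 (log2 -1.93, SE 0.64). For both, WT 1 lay just above the KO libraries and WT 2 was highest. In the hypoxia and glycolysis list 3 of 29 tested members were above 0, against 12880 of all 20624 genes. Its median was -0.35 (-0.49 in shallow, -0.53 in deep libraries, -0.19 without KO 1), KO lay wholly below WT in 4 (13.8%, against 4.98% of all genes) and wholly above in 0, and 0 passed the test. Those 4 were Adm, Vegfa, Slc2a3 and Pkm, with log2 differences of -1.99, -1.30, -0.39 and -0.03 in the deep libraries. Adm, a vasodilator peptide, had 9.34, 3.58 and 5.36 scaled reads in KO against 28.3, 25.1 and 20.5 in WT. The growth factor gene Vegfa had 560.4, 542.9 and 516.3 against 926.6, 881.0 and 1308.5. The glucose transporter gene Slc2a3 had 15872, 15300 and 15673 against 18384, 26934 and 20331. The pyruvate kinase gene Pkm had 6563, 8166 and 7867 against 8591, 10668 and 8187.

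The other lower named genes had varied roles. Crb3, a polarity protein of epithelia, had 6.23, 13.03 and 11.95 scaled reads in KO against 28.3, 83.5 and 57.8 in WT (log2 -2.26, SE 0.57). The epithelial keratin gene Krt8, named from the keratin and trophoblast lists, had 15.6, 19.9 and 16.1 against 46.0, 50.1 and 46.4 (log2 -1.42, SE 0.36). KO 1 held 5 reads of it. Of 48 tested keratin genes 33 were above 0, with a median of 0.73 (1.38 in shallow, 0.29 in deep libraries). KO lay wholly above WT in 2, Krt12 and Krt76, and wholly below in 2 (4.17% each, against 5.5% and 4.98% of all genes). Aspg, an asparaginase, had 34.2, 14.3 and 16.5 against 67.2, 271.4 and 80.8 (log2 -2.44). Fads6, a gene of the fatty acid desaturase family, had 12.4, 11.4 and 13.6 against 74.3, 58.5 and 41.0 (log2 -2.09). The actin-binding coronin gene Coro1a had 9.34, 19.21 and 11.1 against 24.8, 75.2 and 51.5 (log2 -1.78). Nsmf, a synapse-to-nucleus messenger, had 21.8, 25.7 and 25.6 against 49.5, 142.0 and 101.9 (log2 -1.84). The phosphodiesterase gene Pde4c, the pepsinogen gene Pgc and Nxph4, a neurexin ligand, had log2 differences of -1.92, -1.69 and -2.42.

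Few members of the chromatin lists separated the lines, and lists this short would hold few at the shares of all genes. Of 23 H3K9 methylation genes KO lay wholly below WT in 1, Ehmt2 (4.35%, near the 4.98% of all genes). It lay wholly above in 0 (5.5% of all genes), and the 12 H3K9 demethylases had 0 and 0. Among 35 Polycomb genes Ezh1, an H3K27 methyltransferase, was the one without overlap (2.86%, against 4.98% of all genes wholly below). It had 320.7, 421.1 and 409.6 scaled reads in KO against 491.6, 926.9 and 672.3 in WT. Of 39 naive pluripotency genes 0 lay wholly above and 3 wholly below (7.69%, near the 4.98% of all genes), among them Pou5f1 (2818, 2836 and 2747 against 3088, 3724 and 3557), and Nanog, Sox2, Klf4 and Esrrb overlapped. Of 54 autosomal germ cell genes 5 lay wholly above (9.26%, against 5.5% of all genes) and 3 wholly below (5.56%, near the 4.98% of all genes). Among them Asz1, a piRNA pathway gene, had 196.2, 104.5 and 105.9 scaled reads in KO against 60.1, 33.4 and 27.0 in WT, while Dmc1, the meiotic recombinase, had 193.0, 127.3 and 135.6 against 541.1, 434.2 and 309.4. Of 23 Magea and other X-linked multicopy germline genes 22 were above 0, with a median of 1.79 (0.95 in shallow, 1.97 in deep libraries). KO lay wholly above WT in 11 of them (47.8%, against 5.5% of all genes) and wholly below in 0, and 0 passed the test. Of 12 Rhox genes 12 were above 0, and KO lay wholly above WT in 3 (25%). Levels were low, as in Magea10 (28.0, 41.0 and 28.0 against 0, 0 and 4.55). Of 43 imprinted genes 7 lay wholly above (16.3%, against 5.5% of all genes), among them Plagl1 (317.6, 478.7 and 543.1 against 198.1, 154.5 and 298.0), and 3 wholly below (6.98%, near the 4.98% of all genes), among them Igf2 (21.8, 14.98 and 19.4 against 28.3, 71.0 and 33.6). Ribosomal protein genes (76) had a median of -0.17 that was 0.16 without KO 1, and cholesterol synthesis genes (23) one of -0.16 that was 0.24 without it. Receptor genes (195 tested) had a median of 0.79 in all libraries, 2.04 in shallow and 0.42 in deep ones, and KO 1 held the most of their reads.

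**Figure D3:**
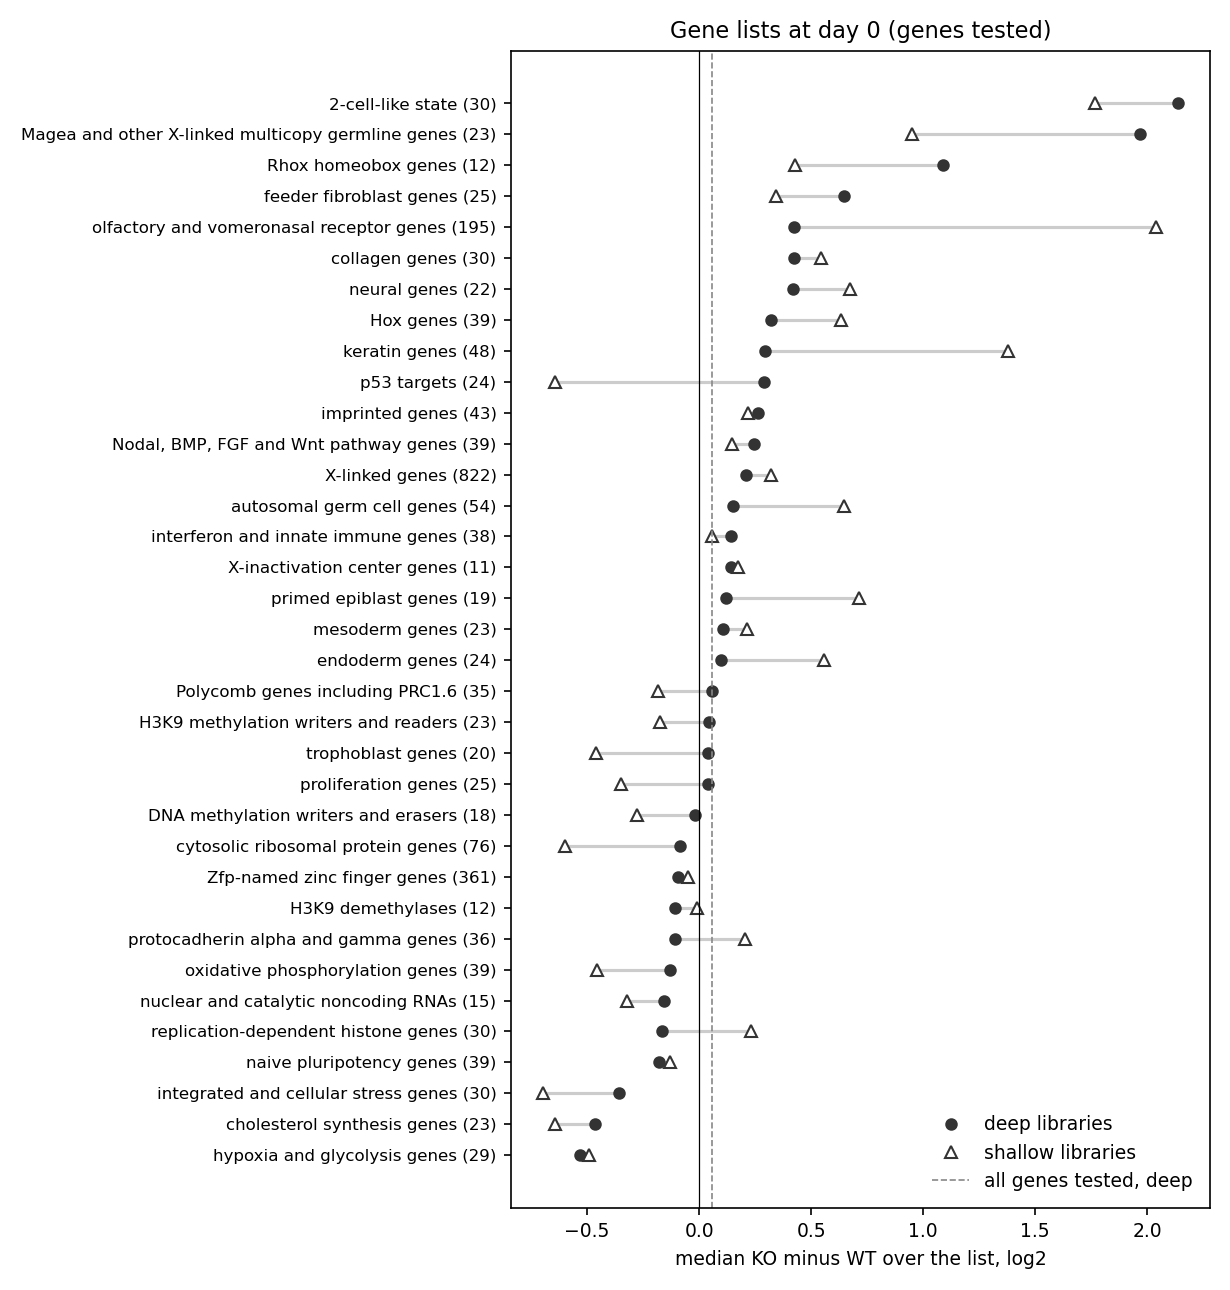
Median KO minus WT difference (log2) of each gene list with at least 10 tested members, in deep (filled) and shallow (open) libraries, with the deep median of all genes dashed. The 2-cell-like list lies at 2.14 (deep) and 1.77 (shallow), and the hypoxia and glycolysis list at -0.53 and -0.49.

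Gene length went with the differences. The 2318 genes longer than 100 kb had a median difference of 0.90 in shallow and 0.40 in deep libraries, against -0.04 and -0.02 in the 6569 genes of 10 to 30 kb. KO lay wholly below WT in 0.82% of the long genes (4.98% of all) and wholly above in 6.21%, near the 5.5% of all. Of the 93 higher genes 18 (19.4%) were longer than 100 kb, and of the 91 lower genes 0, against 16.5% of all 13952. Hecw2, a ubiquitin ligase gene, is one such long gene, with 946.5, 532.4 and 578.5 scaled reads in KO against 424.4, 175.4 and 163.4 in WT (chosen after its values were seen).

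On the X chromosome KO lay wholly above WT in 101 of 822 tested genes (12.3%, against 5.5% of all genes) and wholly below in 7 (0.852%, against 4.98%), and the median log2 difference was 0.42 (0.17 over all genes). The median was 0.32 in shallow and 0.21 in deep libraries (0.11 and 0.06 over all genes), and 0.27 with a depth term (0.07). X-linked genes took 3.97% of reads other than Rn45s in KO 1 and 3.92 and 4.00% in WT 1 and WT 2, all shallow. In the deep KO 2, KO 3 and WT 3 they took 5.04, 5.10 and 4.87%. The mus allele took 50.3, 47.7 and 47.6% of X-linked allelic reads in KO and 51.0, 49.9 and 48.4% in WT, a difference of -1.21 percentage points (exact permutation p = 0.3, adjusted over 20 chromosomes 0.93, 2-sided). For 3 against 3 libraries 0.1 is the smallest exact p, which chromosomes 8 (64.1% in KO, 66.0% in WT) and 16 reached. On some autosomes nearly all allelic reads were mus in both lines, as on chromosome 19 (97.3, 97.7 and 97.7% in KO, 97.4, 97.8 and 97.7% in WT). Efhc2 reads were of the mus allele in 55.8% (Wilson 95% interval 42.3 to 68.4), 83.7% (80.3 to 86.6) and 83.2% (79.7 to 86.2) in KO, against 38.5% (17.7 to 64.5) in WT 1 and 65.1% (50.2 to 77.6) in WT 3; WT 2 had too few. Atp4b reads were nearly all of the cas allele, with mus shares of 2.86, 0.599 and 0.398% in KO against 12.9% in WT 1 and 0% of 69 in WT 3 (Wilson upper bound 5.27%). These intervals cover counting error only.

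H3K9ac peaks within 1 kb of the start were then compared, from 1 sample per line and so with no test. The peak lists held 37704 peaks in KO and 63050 in WT, and shares are therefore read against those of all genes. Of all 13952 genes with a mean of at least 30 scaled reads, 6.39% had a peak in KO only, 16.2% in WT only, 55.9% in both and 21.6% in neither. The 91 lower genes had one in KO only in 6 (6.59%), in WT only in 44 (48.4%) and in both in 9. The 93 higher genes had one in KO only in 11 (11.8%), in WT only in 15 (16.1%), in both in 6 and in neither in 61 (65.6%). Among genes of like level (30 to 150 scaled reads) the share with a peak in WT only was 46.2% of 78 lower genes, 13.04% of 69 higher genes and 22.4% of all 4626. Of the named genes, 7 of the 12 lower ones (Crb3, Ndufa4l2, Nsmf, Fads6, Eno2, Bst2 and Nxph4) had a peak in WT only, while Stat2 had one in KO only. Of the 12 higher ones 1 (Pramel6) had a peak in KO only, 2 (Serpina3m and Neb) in WT only and 9 in neither. With peaks of -log10 q of at least 10 alone (271 in KO, 238 in WT), 0 of the 149 lower genes had one in WT only, as had 0.0145% of all genes, so strong peaks could not show this difference.

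**Figure D4:**
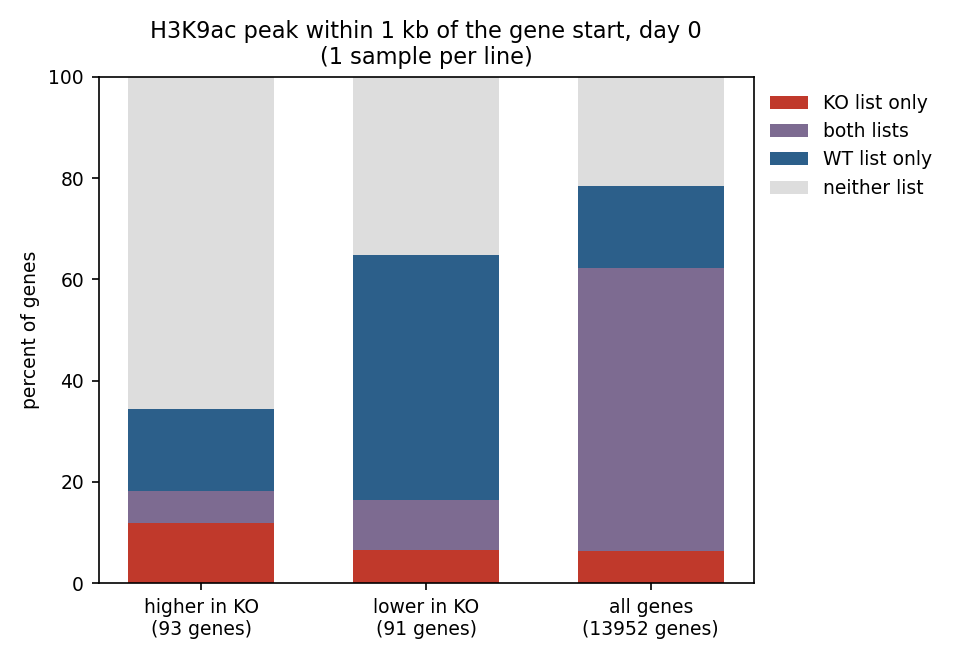
Share of genes (percent) with an H3K9ac peak within 1 kb of the start in KO only, both lines, WT only or neither, for the 93 higher, the 91 lower and all 13952 genes with a mean of at least 30 scaled reads. WT-only peaks make up 48.4% of the lower, 16.1% of the higher and 16.2% of all genes.

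After 10 days of differentiation most of the genes lower at day 0 were again below 0. The day 10 libraries were not used to choose these genes. Of the 12 lower named genes 12 were below 0, 6 at an unadjusted limma p under 0.05 (9.88% of all genes were lower at that p) and 5 with no overlap (12.6%). Bst2 had 107.1, 123.2 and 86.3 scaled reads in KO against 426.1, 395.3 and 184.0 in WT (log2 -1.58, SE 0.50), and Nxph4 15.9, 0 and 5.39 against 30.9, 47.4 and 31.6 (log2 -2.96, SE 0.90). Of the 12 higher named genes 8 were above 0, 3 at an unadjusted limma p under 0.05 (2.06% of all genes were higher at that p) and 2, Usp17la and Zscan4d, with no overlap (5.54%). Efhc2 had a log2 difference of -0.70 (SE 0.72) at day 10, where WT 3, with 1038 CPM of receptor reads, held 488.6 scaled reads. None of the 24 passed in limma. Of the 91 lower genes 72 (79.1%) were below 0 at day 10, against 57.3% of all 13952 genes, and 18 (19.8%) had an unadjusted limma p under 0.05 in that direction, against 8.96%. Of the 93 higher genes 44 (47.3%) were above 0, near the 42.7% of all 13952. At an unadjusted limma p under 0.05, 14 of them (15.1%) were higher, against 2.66% of all, and 10 (10.8%) were lower, against 8.96%. At day 10 Pramel6 had 19.8, 5.48 and 0 scaled reads in KO against 0, 0 and 11.5 in WT, with overlap (log2 1.14, SE 1.29). Pramel7, chosen after its values were seen and with overlap at day 0, had a log2 difference of 4.73 (SE 0.90) at day 10.

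**Figure D5:**
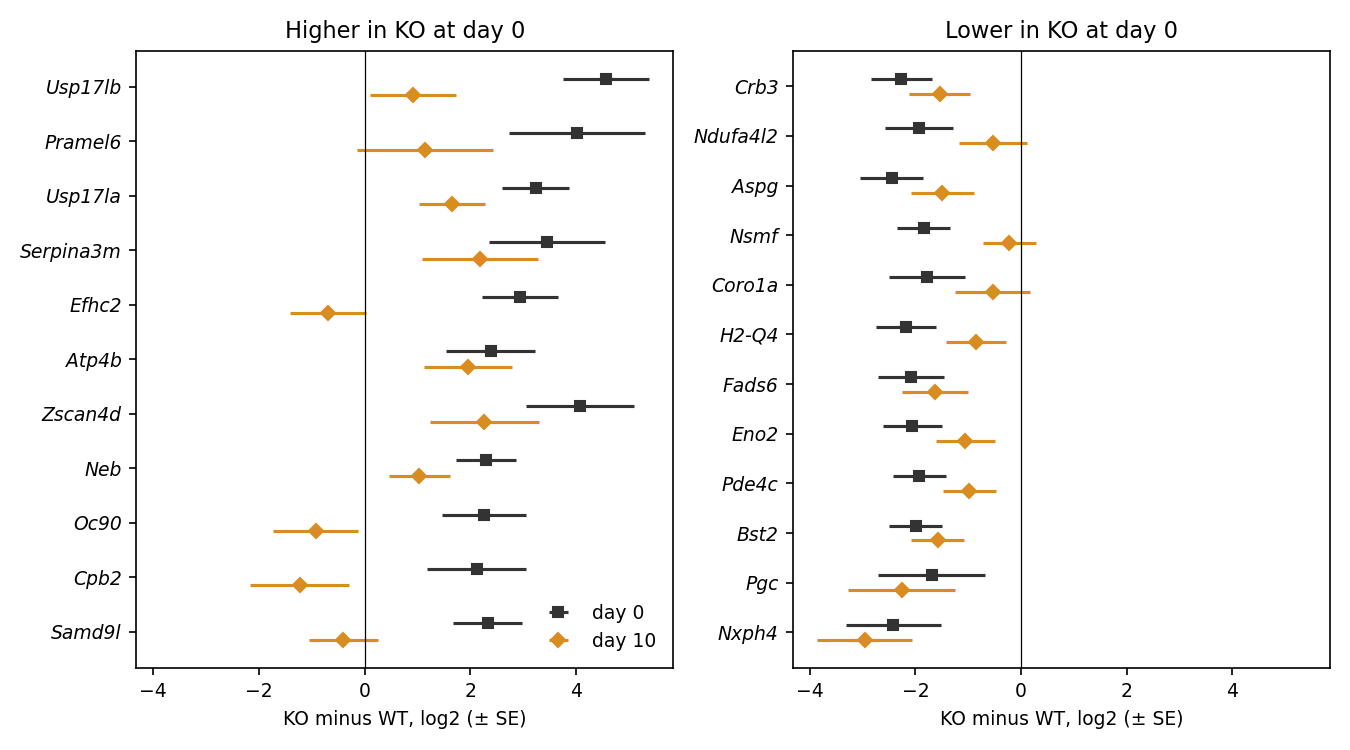
KO minus WT difference (log2, with SE) of 11 higher and 12 lower named genes at day 0 and at day 10. All 12 lower genes plotted are below 0 at day 10 and 7 of the 11 higher genes plotted are above it, while Efhc2 (-0.70) is not.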

How the data were processed

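Total RNA (RNeasy, Ribo-Zero) was sequenced in 3 KO and 3 WT libraries per day. Per the submitters' processing notes TopHat and HOMER served for RNA, Novoalign and MACS2 for ChIP, on mm9; versions, strand, the handling of multiply placed reads and the MACS2 control are not given in the sources used here. The gene table deposited by the authors holds a signal, reads multiplied by 1 factor per library, from which whole reads were recovered (100% of values within 0.02). Its comparison columns, deposited by the authors, are log2 ratios and p-values. The deposited allele table holds a count of mus reads and of cas reads per gene; 12 of its columns (day 10) were not used. The peak lists deposited by the authors give fold enrichment and -log10 p and q.

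Genes above 1 in at least 3 of 12 RNA libraries were tested with limma 3.58.1 (trend, robust; R 4.3.3) on log2(value + 1), with Benjamini-Hochberg adjustment at 0.05; a fold change on this scale understates that of low genes. The pseudocount was 1. edgeR 4.0.16 and DESeq2 1.42.0 were run on the recovered reads. For single values a 2-sided exact permutation test over libraries was used. Other tables were made in Python 3.11.15 (pandas 2.3.3, scipy 1.17.1). Depth was 2081129 to 30527844 reads at day 0. The test was run on simulated data.

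Named were Ehmt2, Ehmt1, Xist and Tsix; the 12 highest and 12 lowest genes by the smaller of the depth-class differences, among genes with no overlap and a mean of at least 30, passing over predicted genes and small RNAs; and up to 4 members of each list by the same ranking. Not all are printed, and 1 of the 12 higher genes is not reported here. Members, lists and rules were chosen with earlier results of these data known. Alternatives were other pseudocounts, filters, scalings and tools, a depth term, a replicate block, libraries left out, fold limits and peak settings.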

Additional observations from a re-analysis of the deposited data

Results flagged for a closer look

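Among the genes covered by the naming rule, KO and WT libraries of 5 did not overlap on either day and lay in opposite directions. Of the 93 genes higher at day 0 by at least 2-fold, 8.602% had KO wholly below WT at day 10, against 13.6% of all 13952 genes. Of the 91 lower ones 0% had KO wholly above, against 7.61% of all 13952. The difference of the log2 differences, day 0 minus day 10, was tested in limma over 20624 genes, of which 0 passed and 1795 had an unadjusted p under 0.05. Dppa5a, a naive pluripotency gene, had 1616, 1407 and 1338 scaled reads in KO against 1818, 3286 and 2599 in WT at day 0, and 1154, 1155 and 1098 against 827.6, 642.4 and 158.1 at day 10. Its difference was -2.15 (SE 0.66, limma adjusted p 0.547). The pluripotency factor gene Pou5f1 had a difference of -1.41 (limma adjusted p 0.554), with 1777, 2253 and 1694 against 1414, 1244 and 385.1 at day 10. Dab2, an endocytic adaptor of endoderm, had 230.4, 136.1 and 138.0 in KO against 106.1, 50.1 and 52.1 in WT at day 0, and 142.8, 178.0 and 194.2 against 342.8, 199.7 and 603.6 at day 10, a difference of 2.33 (limma adjusted p 0.547). For Gata3, a transcription factor of trophoblast, the difference was 1.96 (limma adjusted p 0.547), and for Cyc1, cytochrome c1, -0.83 (limma adjusted p 0.563).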

How the results depend on the processing

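The count of genes passing was 0 under every alternative run except DESeq2 (16) and voom with sample weights (1244). Genes at an unadjusted p under 0.05 numbered 788, 3945 with voom, 335 (without WT 2) to 1949 (without KO 1) with 1 library left out, and 1397 without KO 1 and WT 1. The 511 genes of the 2-fold rule became 231 with a pseudocount of 5, 1119 at 1.5-fold, 48 at 4-fold, 184 with a mean of at least 30, and 597 (without KO 3) to 1069 (without WT 1) with 1 library left out; KO 1 and WT 3 could not be left out, being alone in their depth class, and the last 2 kinds of alternative were chosen after seeing the data. Ehmt2 was at -1.50 with voom, where it passed and where KO 2 and KO 3 had the highest weights. The median of the 2-cell-like list was 1.94 with a pseudocount of 0.1, 1.51 with 5, 1.94 with DESeq2, 2.30 with voom, 1.67 (without WT 2) to 2.18 (without WT 1) with 1 library left out, and 2.29 without KO 1 and WT 1. The share of the 149 lower genes with an H3K9ac peak in WT only was 41.6%, and 0 at a -log10 q of at least 10. The cause of these shifts was not tested. The 24 genes chosen at day 0 kept their direction under each alternative run, except that Coro1a had no value in edgeR and voom, where 23 were fitted. They were chosen for libraries that do not overlap. With a library left out or another pseudocount their direction was thus fixed in advance, which tests nothing.

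With the replicate number as a block 0 genes passed and 746 had an unadjusted p under 0.05. The numbers are not shown to pair the libraries: deviations of same-numbered KO and WT libraries correlated at 0.43, -0.11 and 0.58. Depth limits low genes, since 1 read in a shallow library is worth 3.11 to 4.18 scaled reads.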
